A study of Homo sapiens with 6 samples.

Results

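The 31 genes described here are targets of the androgen receptor, taken from a list of symbols by their known androgen response. The list was chosen with earlier results of these data known. All 31 were matched to an Ensembl identifier among the 57820 genes of the count files. The androgen receptor is a hormone-activated transcription factor that binds androgen response elements in DNA and raises the transcription of nearby genes. In luminal prostate cells and in prostate cancer its target genes include the kallikrein proteases of the seminal fluid, and their mRNA is widely used as a readout of receptor activity. Enzalutamide is a drug that blocks the receptor. The 31 genes were followed in the enzalutamide-resistant human prostate cancer line C4-2B-ENZR, which was grown in medium with fetal bovine serum and antibiotics and transfected with either a negative-control siRNA or an siRNA against RUVBL1. The RUVBL1 protein is an ATPase found in chromatin-remodelling and chaperone complexes. Each group had 3 libraries of total RNA from this cell line, and the sources used here do not give the number of siRNA sequences, the time after transfection or whether enzalutamide was in the medium.

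Library totals ran from 18985542 to 36054489 estimated counts, and RUVBL1 itself had 4681, 4654 and 4758 normalized counts in the control libraries against 2725, 2618 and 2710 with RUVBL1 siRNA (log2 fold change -0.81, edgeR adjusted p = 3.74e-10). A normalized count is the count scaled to the mean effective library size of 26348516. Of 6 luminal epithelial markers, 5 were matched, and their normalized counts summed to between 56934 and 58228 with control siRNA and between 47473 and 48249 with RUVBL1 siRNA. The 4 basal epithelial markers summed to at most 1.52 and 2.17, with KRT5 and KRT14 at 0 in all 6 libraries. The 8 neuroendocrine markers summed to between 1350 and 1453 and between 1180 and 1204, with CHGB and INSM1 at 0 in all libraries. Most of that sum was ENO2 (1264 to 1352 against 1056 to 1086), which was called lower (edgeR adjusted p = 3.12e-05). SYP was at 77.8 to 95.7 against 112 to 114 and was not called (edgeR adjusted p = 0.0588). The 9 matched stromal, endothelial and immune markers of 10 summed to between 609 and 662 and between 465 and 527, with COL1A2, DCN, LUM and CD3E at 0 in all libraries. CD68, listed here as an immune marker, was the 1 of 4 tested that fell (log2 fold change -0.96, edgeR adjusted p = 8.71e-06). Its normalized counts were 301, 333 and 327 with control siRNA and 186, 154 and 154 with RUVBL1 siRNA. COL1A1, VIM and VWF had log2 fold changes of 0.01, 0.01 and 0.21 and were not called. The part of these shifts in the changes described next was not tested. In bulk RNA, fewer cells of a kind and less RNA per cell cannot be told apart. Replicate 1 stood apart in both groups: 768 of the 16006 tested genes were at 0 in both replicate 1 libraries, 704 of them with at least 10 counts in each of the other 4 libraries. Whether replicate 1 was counted against another annotation is not given in the sources used here, and 1 tested member, PART1, was among these genes.

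Well-known androgen response elements lie upstream of KLK3 and KLK2, which are neighbours on chromosome 19. RefSeq lists the genes there in the order KLK15, KLK3, KLK2 and KLK4, with a noncoding RNA gene between KLK15 and KLK3 and the pseudogene KLKP1 between KLK2 and KLK4. The 250 bases before each start site are shown because they align closely while only KLK2 of the 2 genes was called, with the KLK3 androgen response element and the KLK2 stretch aligned to it in capitals (RefSeq, GRCh38.p14, plus strand, chr19:50854665-50854914 for KLK3 and chr19:50873189-50873438 for KLK2).
KLK3: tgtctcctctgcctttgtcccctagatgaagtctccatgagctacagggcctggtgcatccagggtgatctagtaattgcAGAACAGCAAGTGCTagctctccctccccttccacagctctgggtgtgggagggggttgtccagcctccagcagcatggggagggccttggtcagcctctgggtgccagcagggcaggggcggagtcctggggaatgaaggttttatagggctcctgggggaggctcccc
KLK2: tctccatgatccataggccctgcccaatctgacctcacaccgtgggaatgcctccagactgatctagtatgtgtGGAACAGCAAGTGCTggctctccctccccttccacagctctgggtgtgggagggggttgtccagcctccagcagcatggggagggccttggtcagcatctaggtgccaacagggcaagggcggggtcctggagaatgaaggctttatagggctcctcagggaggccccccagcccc
In a global alignment, 205 of 241 aligned bases were identical (85.1%). The element began 170 bases before the start of KLK3 and 176 bases before that of KLK2. Its 15 bases differed by 1 substitution, A1G, counted from the first base of the KLK3 element.

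Promoter windows of 300 bases (250 before and 50 after a start site) were listed for 25 of the 31 genes, 39 windows in all, and were searched on both strands. The hexamer AGAACA was found in 5 of the 39 member windows (12.8%) and in 14.8% of the 35116 windows of all genes. The members holding it were KLK3, FKBP5, PMEPA1 and TRPM8. The palindromic core GNACANNNTGTNC was found in 1 member window, that of GNMT, as GGACAGCGTGTAC, and in 0.39% of all windows. The core can overlap AGAACA. The letters TATAAA, those of a TATA box, were found in 6 member windows (15.4%) and in 11.5% of all windows. Both KLK3 and KLK2 held them on the reverse strand, 28 and 34 bases before the start. A match is a run of letters and not a measured binding site.

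Of the 31 genes, 29 had enough counts to be tested. Of these 29, 12 fell and 9 rose after RUVBL1 siRNA, and 8 did not pass an edgeR adjusted p of 0.05. The called share was 72.4% among the members and 42.2% among all 16006 genes tested, with 12 of 29 members lower (41.4%, background 23.1%) and 9 of 29 higher (background 19.1%). Because the members were chosen with earlier results of these data known, the shares and medians in this paragraph are a description. No set test was run. Genes with more counts passed more often, so the comparison was repeated at a mean of at least 500 normalized counts, where 14 of 18 members were called (77.8%) against 62.0% of all such genes. Of these 14 members, 7 were higher and 7 lower. The groups did not overlap for 21 of the 29 members (72.4%), which were the 21 called ones, against 52.6% of all tested genes. The changes were small: no called member reached a 2-fold change, the median log2 fold change was -0.44 among those that fell and 0.32 among those that rose, and the lowest count of a called member in any library was 21. The median over the 29 genes was -0.04, beside 0.01 over all tested genes, and the median size without regard to sign was 0.36 beside 0.19.

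When scaled by library totals alone, 10 members rose and 11 fell, against 31.1% and 14.4% of all genes, and the median of the members turned to 0.06 while that of all genes moved to 0.11. In replicates 2 and 3 alone, 9 members rose and 11 fell, against 3435 and 3970 of all 16416 genes tested there. HOMER2 was then called, and KLK15 and EAF2 were not. Of the 21 calls, 18 kept their direction and passed the threshold under all 15 other settings tried, which were 8 of the 9 that rose and 10 of the 12 that fell. The other 3 were KLK15, SLC45A3 and EAF2. The labels do not say whether the replicates came from different cultures; p-values therefore rest on library-to-library spread that may be purely technical. Each of the 21 called members gave p = 0.1 in an exact two-sided permutation test over libraries, the smallest that 20 assignments allow.

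**Figure D1:**
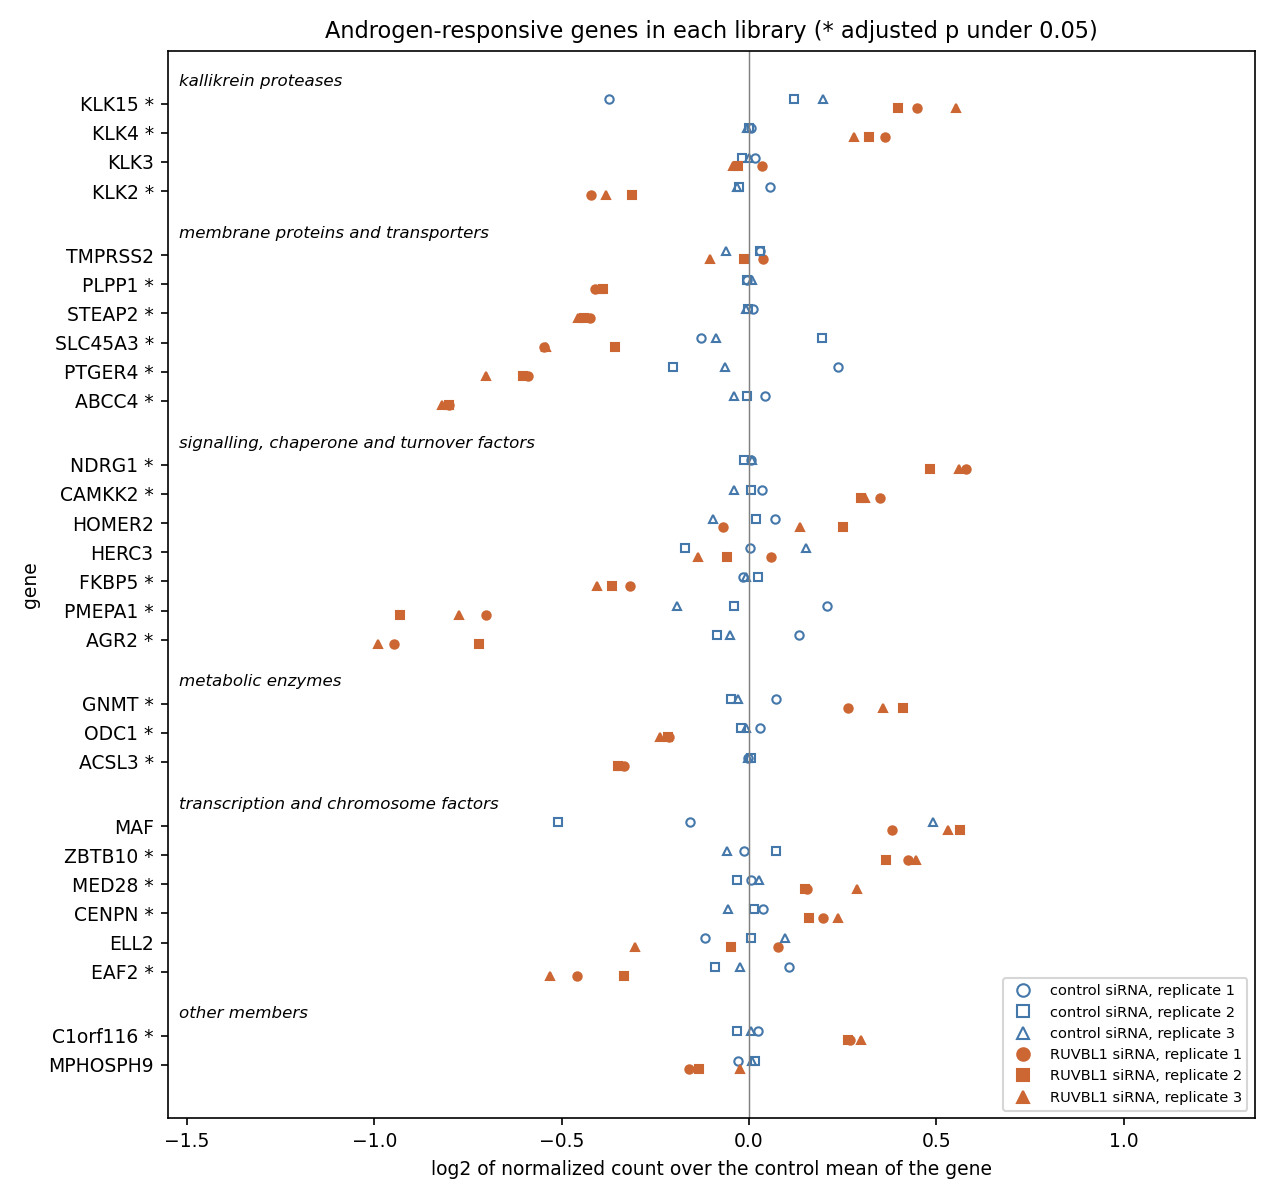
Normalized count of each tested androgen-responsive gene in each library, as log2 of its ratio to the control mean of that gene (horizontal axis), for 3 control siRNA libraries (open blue) and 3 RUVBL1 siRNA libraries (filled orange), grouped by role. PART1, listed at 0 in replicate 1 of both groups, is left out; the 21 genes with an asterisk passed an adjusted p of 0.05 and in none of them do the groups overlap.

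The 4 kallikrein genes did not move together. KLK3 (ENSG00000142515.10), which encodes prostate-specific antigen, had 11651, 11358 and 11522 normalized counts with control siRNA and 11796, 11289 and 11184 with RUVBL1 siRNA. The groups overlapped, and the log2 fold change was -0.01 (95% interval -0.06 to 0.04, edgeR adjusted p = 0.756). Under library-total scaling it was 0.09 and passed the threshold (edgeR adjusted p = 0.0114, in a range to 0.967 over the settings), so that no direction for KLK3 can be given apart from the scaling. KLK2 (ENSG00000167751.8) encodes a trypsin-like protease that activates the precursor of prostate-specific antigen. Its normalized counts were 1120, 1058 and 1053 with control siRNA and 804, 867 and 827 with RUVBL1 siRNA. All 3 RUVBL1 siRNA libraries lay below all controls, at 77.3% ± 2.99 of the control mean (SD, n = 3; log2 fold change -0.37, SE 0.0439, edgeR adjusted p = 2.44e-05).

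KLK4 (ENSG00000167749.7), which encodes a further prostate protease, went the other way. It had 2936, 2929 and 2915 normalized counts with control siRNA and 3762, 3653 and 3552 with RUVBL1 siRNA, a rise in every library over every control (log2 fold change 0.32, SE 0.0276, edgeR adjusted p = 1.49e-06). KLK15, a little-studied protease gene, was thinly counted, at 0.583%, 0.842% and 0.872% of the KLK3 count with control siRNA and 1.02%, 1.03% and 1.16% with RUVBL1 siRNA. Control replicate 1 was the lowest of the 6, and the log2 fold change was 0.47 (edgeR adjusted p = 0.034). The call was lost with DESeq2 (adjusted p = 0.0894), in replicates 2 and 3 alone (edgeR adjusted p = 0.0826, log2 fold change 0.32) and without any of 5 of the libraries, the exception being control replicate 3. Over all 15 settings its adjusted p ran from 0.00682 to 0.118.

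Ratios within a library do not depend on scaling. The KLK2 count was 9.61%, 9.31% and 9.13% of the KLK3 count with control siRNA and 6.81%, 7.68% and 7.39% with RUVBL1 siRNA, a log2 difference of -0.36. The KLK4 count was 25.2%, 25.8% and 25.3% of the KLK3 count with control siRNA and 31.9%, 32.4% and 31.8% with RUVBL1 siRNA, a log2 difference of 0.33. KLK4 thus stood at 272% ± 8.51 of KLK2 with control siRNA and at 440% ± 25.0 with RUVBL1 siRNA (SD, n = 3 each). TMPRSS2 stood at 19.9% ± 0.769 and 19.7% ± 0.553 of KLK3. Of 6 such ratios computed, 5 separated the groups completely with exact permutation p = 0.1 (0.12 after Benjamini-Hochberg adjustment over the 6), and TMPRSS2 to KLK3 gave exact permutation p = 0.7. Each of the 5 holds a called gene whose groups already did not overlap, so their separation is not further evidence. Only 11 of 5119 windows of 50 bases in the KLK3 transcripts occurred in transcripts of another gene, all of them in KLK2. For KLK2 it was 31 of 6910 windows, with BMS1P1, STEAP4 and CAMK1D among the genes sharing them. KLK4 and KLK15 had 0 shared windows. The counts of the 4 kallikrein genes were whole in every library.

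**Figure D2:**
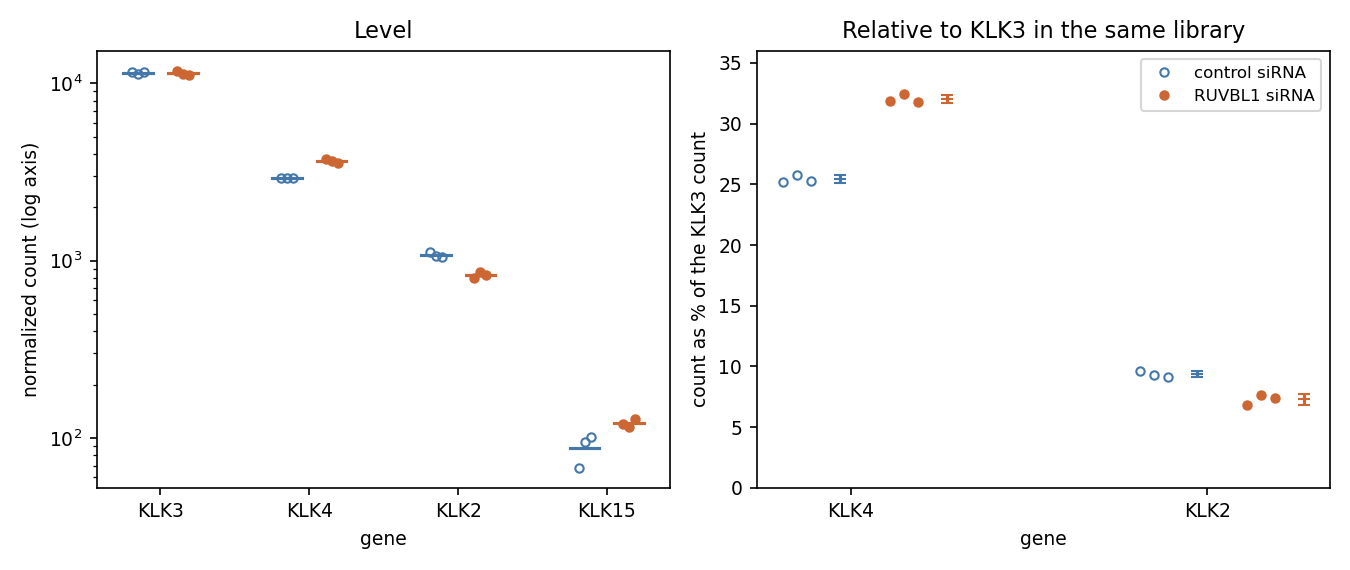
Left, normalized counts of the 4 kallikrein genes on a log axis, with each library as a point and each group mean as a line. Right, counts of KLK4 and KLK2 as a percentage of the KLK3 count of the same library, with mean and SD beside the points (n = 3 each): KLK4 stands at 25.4% and 32.0% and KLK2 at 9.35% and 7.30%, while KLK3 itself overlaps between the groups.

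Of the 8 genes of membrane proteins and transporters, 6 were tested, of which 5 fell and 0 rose (background 23.1% and 19.1%). The most strongly counted was STEAP2, a metalloreductase gene of iron and copper uptake, with 28713, 28477 and 28371 normalized counts with control siRNA and 21264, 21031 and 20797 with RUVBL1 siRNA. It stood at 73.7% ± 0.818 of the control mean (SD, n = 3; log2 fold change -0.44, edgeR adjusted p = 4.08e-09). PLPP1, which encodes a phosphatase of lipid phosphates at the cell surface, had 10800, 10805 and 10899 with control siRNA and 8143, 8272 and 8229 with RUVBL1 siRNA (log2 fold change -0.40, edgeR adjusted p = 3.55e-09). Both genes had groups that were far apart relative to their spread. The antisense gene STEAP2-AS1 overlaps STEAP2 and MTREX overlaps PLPP1 on the opposite strand in GENCODE 29, and the strand setting of the counting is not given in the sources used here. Genes on the opposite strand also overlap PTGER4 (TTC33), GNMT (PEX6), PMEPA1 (NKILA), CENPN (CMC2) and MED28 (FAM184B), among others.

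ABCC4, which encodes an exporter of cyclic nucleotides and prostaglandins, had the largest fall of the membrane group. Its normalized counts were 1195, 1155 and 1128 with control siRNA and 666, 666 and 658 with RUVBL1 siRNA, 57.2% ± 0.381 of the control mean (SD, n = 3; log2 fold change -0.81, SE 0.0408, edgeR adjusted p = 1.51e-08). PTGER4, which encodes the EP4 receptor for prostaglandin E2, had 190, 140 and 154 with control siRNA and 107, 106 and 98.9 with RUVBL1 siRNA (log2 fold change -0.63, edgeR adjusted p = 0.00239). SLC45A3, which encodes the prostate protein prostein, had 107, 134 and 110 with control siRNA and 80.1, 91.4 and 80.4 with RUVBL1 siRNA (log2 fold change -0.48, edgeR adjusted p = 0.0178). In these 3 genes the groups did not overlap, but the control libraries of PTGER4 and SLC45A3 were spread widely. The call of SLC45A3 was lost with DESeq2 (adjusted p = 0.0787), without RUVBL1 siRNA replicate 3 (edgeR adjusted p = 0.0628) and without control replicate 2 (edgeR adjusted p = 0.0984), in a range from 0.00427 to 0.0984 over the 15 settings.

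TMPRSS2, a surface serine protease gene that is often the androgen-driven partner of ETS gene fusions, was the exception in this group. It had 2339, 2338 and 2197 normalized counts with control siRNA and 2350, 2269 and 2133 with RUVBL1 siRNA. The groups overlapped and the log2 fold change was -0.03 (95% interval -0.11 to 0.06, edgeR adjusted p = 0.668), or 0.07 under library-total scaling. The remaining 2 members were too low to test. TRPM8, the cold and menthol channel gene, had 1, 1 and 3 counts with control siRNA and 1, 1 and 2 with RUVBL1 siRNA. The metalloreductase gene STEAP4 had 2, 2 and 1 and then 3, 7 and 3 counts.

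**Figure D3:**
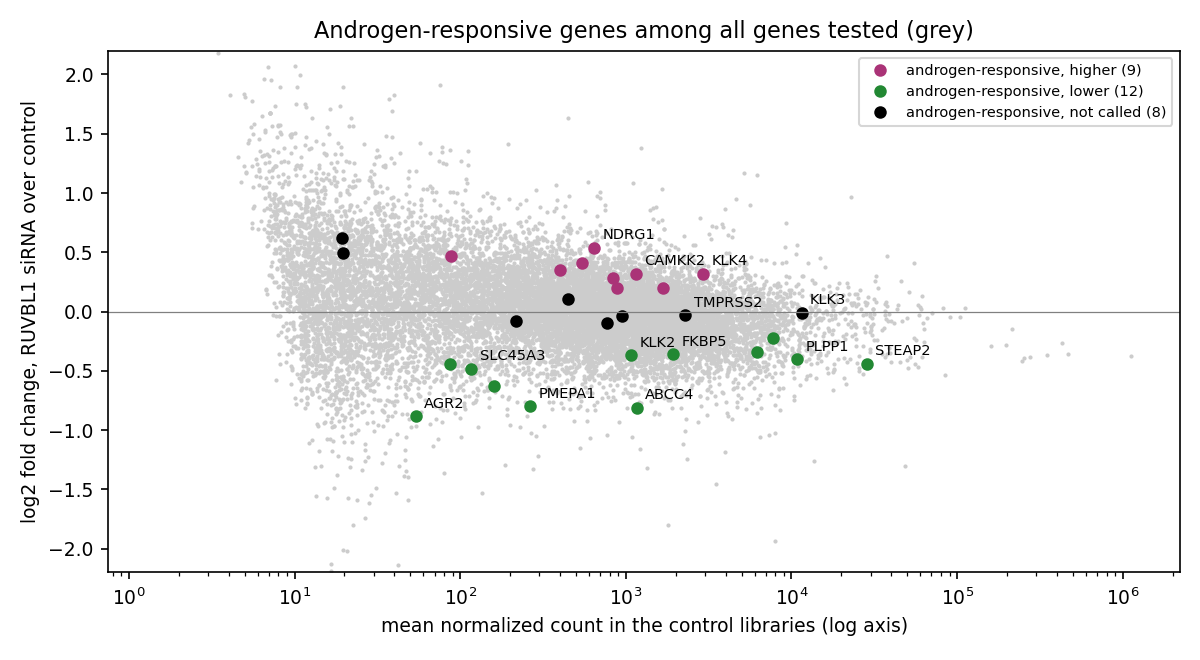
Mean normalized count in the control libraries (horizontal, log axis) against the log2 fold change (vertical) for all 16006 tested genes (grey) and the 29 tested androgen-responsive genes (12 lower, 9 higher, 8 not called). The androgen-responsive genes span the range of levels, with STEAP2 at -0.44, KLK3 at -0.01 and NDRG1 at 0.54; genes outside the vertical range of the plot are not drawn.

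Among genes of signalling, chaperones and protein turnover, 3 of 7 fell and 2 rose (same background). FKBP5 encodes FKBP51, a co-chaperone of HSP90 that binds steroid receptors. It had 1910, 1963 and 1920 normalized counts with control siRNA and 1549, 1499 and 1459 with RUVBL1 siRNA, 77.8% ± 2.33 of the control mean (SD, n = 3; log2 fold change -0.36, edgeR adjusted p = 2.29e-06). Its ratio to KLK3 went from 16.8% ± 0.458 to 13.2% ± 0.119, with no overlap. PMEPA1 encodes a membrane protein that restrains TGF-beta signalling and helps to degrade the androgen receptor. Its normalized counts were 306, 258 and 232 with control siRNA and 163, 139 and 155 with RUVBL1 siRNA (log2 fold change -0.80, SE 0.119, edgeR adjusted p = 0.000155). AGR2, a disulfide isomerase gene of the endoplasmic reticulum, was thinly counted, with 59.2, 50.9 and 52.1 and then 28.0, 32.8 and 27.2 normalized counts. It had the largest fall of all called members (log2 fold change -0.88, 95% interval -1.34 to -0.41, edgeR adjusted p = 0.00533), although its interval holds the values of ABCC4 and PMEPA1.

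NDRG1 and CAMKK2 rose. NDRG1, a gene also known to respond to hypoxia and other stress, had 648, 639 and 649 normalized counts with control siRNA and 964, 902 and 952 with RUVBL1 siRNA. This 1.46-fold rise was the largest among called members (log2 0.54, SE 0.0456, edgeR adjusted p = 1.22e-06). CAMKK2, which encodes a calcium-dependent kinase that activates AMPK, had 1175, 1153 and 1117 and then 1462, 1413 and 1424 (log2 fold change 0.32, edgeR adjusted p = 9.63e-06). In both, every RUVBL1 siRNA library was above every control library. The scaffold gene HOMER2 (log2 fold change 0.11, 95% interval -0.06 to 0.29) and the ubiquitin ligase gene HERC3 (-0.04, -0.27 to 0.18, or 0.06 under library-total scaling) overlapped between groups and were not called. HOMER2 passed in replicates 2 and 3 alone (log2 fold change 0.23, edgeR adjusted p = 0.0137, in a range to 0.806 over the settings). HERC3 had counts that were not whole, and 6.16% of its 50-base windows also occurred in transcripts of other genes.

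All 3 metabolic enzymes were called, 2 lower and 1 higher (background 23.1% and 19.1%, or 42.2% in either direction). ACSL3, which encodes a long-chain acyl-CoA synthetase, had 6210, 6252 and 6211 normalized counts with control siRNA and 4939, 4889 and 4903 with RUVBL1 siRNA (log2 fold change -0.34, edgeR adjusted p = 1.28e-08). ODC1, the gene of ornithine decarboxylase in polyamine synthesis, had 7930, 7648 and 7718 and then 6695, 6688 and 6592 (log2 fold change -0.22, edgeR adjusted p = 1.32e-06). ACSL3 thus stood at 78.9% ± 0.419 and ODC1 at 85.7% ± 0.746 of their control means (SD, n = 3 each), with the groups well apart. GNMT, which encodes a methyltransferase that consumes S-adenosylmethionine, rose from 423, 389 and 394 to 483, 535 and 515 (log2 fold change 0.35, edgeR adjusted p = 0.000781).

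Of 6 genes of transcription and chromosome factors, 3 rose and 1 fell (background 19.1% and 23.1%). The zinc finger gene ZBTB10 had 541, 574 and 524 normalized counts with control siRNA and 733, 703 and 744 with RUVBL1 siRNA (log2 fold change 0.41, edgeR adjusted p = 5.72e-05). The centromere gene CENPN rose from 1665 ± 57.0 to 1911 ± 51.5 and the Mediator subunit gene MED28 from 889 ± 18.6 to 1020 ± 56.5 (SD, n = 3 each; log2 fold change 0.20 for each). Both of these had counts that were not whole, as did PLPP1. EAF2, a partner of ELL elongation factors, had 93.1, 81.2 and 85.0 and then 62.8, 68.6 and 59.8 (log2 fold change -0.44, edgeR adjusted p = 0.0373). Its call was the least stable of all, being lost with DESeq2 (adjusted p = 0.176), with limma-voom (adjusted p = 0.0547), with scaling by totals alone (edgeR adjusted p = 0.0943), without the filter on low counts (0.0993) and in replicates 2 and 3 alone (0.114), with a range from 0.0316 to 0.176 over the 15 settings. It was also lost without any of 5 of the libraries, the exception being RUVBL1 siRNA replicate 2. The elongation factor gene ELL2 (-0.08, 95% interval -0.33 to 0.17, or 0.02 under library-total scaling) and the transcription factor gene MAF (0.49, -0.23 to 1.21) were not called.

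Of the last 3 members, C1orf116, an androgen-regulated gene of little-known function, rose from 847, 815 and 836 normalized counts to 1004, 1001 and 1025 (log2 fold change 0.28, edgeR adjusted p = 9.39e-05). MPHOSPH9, which encodes a centrosomal protein, was not called (log2 fold change -0.10, 95% interval -0.21 to 0.01), but passed without RUVBL1 siRNA replicate 3 (-0.15, edgeR adjusted p = 0.0431, in a range to 0.962 over the settings). PART1, a prostate-enriched long noncoding RNA gene, was listed at 0 in replicate 1 of both groups. Its counts in replicates 2 and 3 were 40 and 30 with control siRNA and 42 and 44 with RUVBL1 siRNA, and the interval over all libraries was wide (95% interval -4.20 to 5.44 on the log2 scale).

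Levels per length were compared within the control libraries as RPKM, the count per kilobase of median GENCODE 29 transcript length scaled to the library. That median runs over all annotated transcripts of a gene, short ones included. It was 639 bases for ACSL3 and 726 for TMPRSS2 but 3883.5 for FKBP5. The order of the genes therefore depends on the annotation as well as on the counts. The highest of the 31 were STEAP2 (500), PLPP1 (499), KLK3 (404) and ACSL3 (370), followed by ODC1 (226), KLK4 (150) and TMPRSS2 (120). KLK2 was at 45.8, FKBP5 at 18.9, PMEPA1 at 3.74 and SLC45A3 at 1.53. Across 29 tested members, 19 lay above the median of all tested genes with a length. The 4 genes under 1 RPKM were MAF, PART1, TRPM8 and STEAP4. Members thus covered the range from near absence to the percentile 98.1 of tested genes, and those that fell included both well-expressed ones (STEAP2, PLPP1, ACSL3) and weakly expressed ones (AGR2, PMEPA1). Among the 18 members with at least 500 normalized counts in the control libraries, the coefficient of variation ran from 0.364% to 11.1% in the control group and from 0.531% to 6.82% with RUVBL1 siRNA.

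Pioneer factors, coregulators and other parts of the receptor system were then examined on a list of 20 genes, 19 of them tested, of which 8 fell and 6 rose (background 23.1% lower and 19.1% higher), or 6 and 9 under library-total scaling (background 14.4% and 31.1%). Most genes of this list had a mean of at least 500 normalized counts. Of all such genes, 62.0% were called in either direction. HSP90AA1 and FKBP4, which encode chaperones of steroid receptors, fell by 0.54 and 0.44 on the log2 scale, and GATA2, a factor that opens receptor binding sites, fell by 0.35. The counts of HSP90AA1 and FKBP4 were not whole. FOXA1, the pioneer factor of luminal cells, rose from 5644 ± 81.0 to 6774 ± 38.8 normalized counts (SD, n = 3 each), with a log2 fold change of 0.26 (edgeR adjusted p = 1.33e-07).

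Other androgen-induced genes, 28 in number and none of them among the 31, were also split. Of 27 tested, 14 fell and 9 rose (background 23.1% and 19.1%), or 9 and 10 under library-total scaling (background 14.4% and 31.1%). Most of these genes also had a mean of at least 500 normalized counts, where 62.0% of all genes were called in either direction. ABHD2, a lipid hydrolase gene, fell by 0.64 on the log2 scale, the keratin gene KRT8 by 0.49 and the fatty acid elongase gene ELOVL5 by 0.35. KRT8 and KRT18, both lower, are on this list and also among the luminal epithelial markers above, so these falls are not separate observations. Of 5 androgen-repressed genes, 2 fell and 0 rose (background 23.1% and 19.1%). Under library-total scaling 1 fell and 0 rose (background 14.4% and 31.1%). The counts were the same in replicates 2 and 3 alone (3970 and 3435 of all 16416 tested). FOLH1, the gene of prostate-specific membrane antigen, had 39457, 39293 and 39286 normalized counts with control siRNA and 31236, 30674 and 30706 with RUVBL1 siRNA (log2 fold change -0.35, edgeR adjusted p = 2.27e-08). The glucuronosyltransferase gene UGT2B17 had a log2 fold change of -0.33 (edgeR adjusted p = 0.021), which lost its call with scaling by totals alone (edgeR adjusted p = 0.0879) and in replicates 2 and 3 alone (0.112), with a range from 0.00758 to 0.112 over the settings. UGT2B17 has near-identical family members, so its counts are uncertain. The counts of UGT2B17, FOLH1, ABHD2 and KRT8 were not whole.

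The glucocorticoid receptor binds many of the same elements, and several of the 31 genes, FKBP5 among them, also respond to it. Of 9 genes on a list of that receptor and shared response genes, 8 were tested, of which 5 rose and 1 fell (background 19.1% and 23.1%). The counts were 3 and 1 in replicates 2 and 3 alone (3435 and 3970 of all 16416 tested), and 5 and 0 under library-total scaling (background 31.1% and 14.4%). NR3C1, the receptor gene, was barely counted, with 1, 6 and 3 counts with control siRNA and 18, 16 and 11 with RUVBL1 siRNA (log2 fold change 2.51, 95% interval 1.23 to 3.79, edgeR adjusted p = 0.00407), and DESeq2 gave it no adjusted p. TSC22D3, which encodes the glucocorticoid-induced leucine zipper, rose from 1107 ± 31.2 to 2351 ± 43.2 normalized counts (SD, n = 3 each), with a log2 fold change of 1.09 (edgeR adjusted p = 3.32e-10). The zinc finger gene KLF9 rose by 0.18 on the log2 scale. DUSP1 had a log2 fold change of 0.24 (edgeR adjusted p = 0.0344), and its call was lost in replicates 2 and 3 alone (edgeR adjusted p = 0.0951), among other settings, in a range from 0.00435 to 0.135. ERRFI1 (log2 fold change 0.14, edgeR adjusted p = 0.037) was the fifth that rose, and lost its call in replicates 2 and 3 alone and without RUVBL1 siRNA replicate 1, control replicate 1 or control replicate 2 (edgeR adjusted p from 0.00209 to 0.194 over the settings). The kinase gene SGK1 (-0.35, edgeR adjusted p = 0.0451) was the 1 that fell. Its call was lost with DESeq2, under library-total scaling, without the filter on low counts and without any of 5 of the libraries, the exception being control replicate 1 (adjusted p from 0.00891 to 0.163 over the settings). Both are outside the rule for named genes and were singled out after their values were seen.

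**Figure D4:**
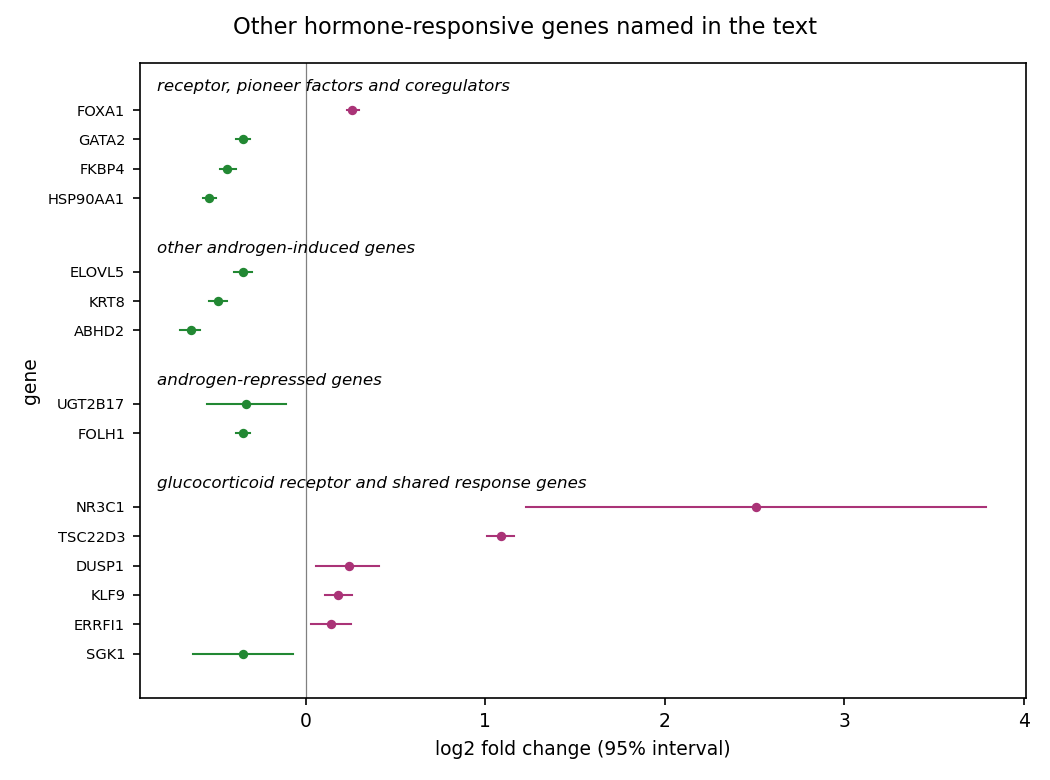
Log2 fold change (horizontal axis) with its 95% interval for the genes of the 4 lists that are named in the text, each list under its name, green for lower and purple for higher. FOXA1 lies at 0.26 against GATA2 at -0.35, and NR3C1 stands out with a wide interval from 1.23 to 3.79.

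**Figure D5:**
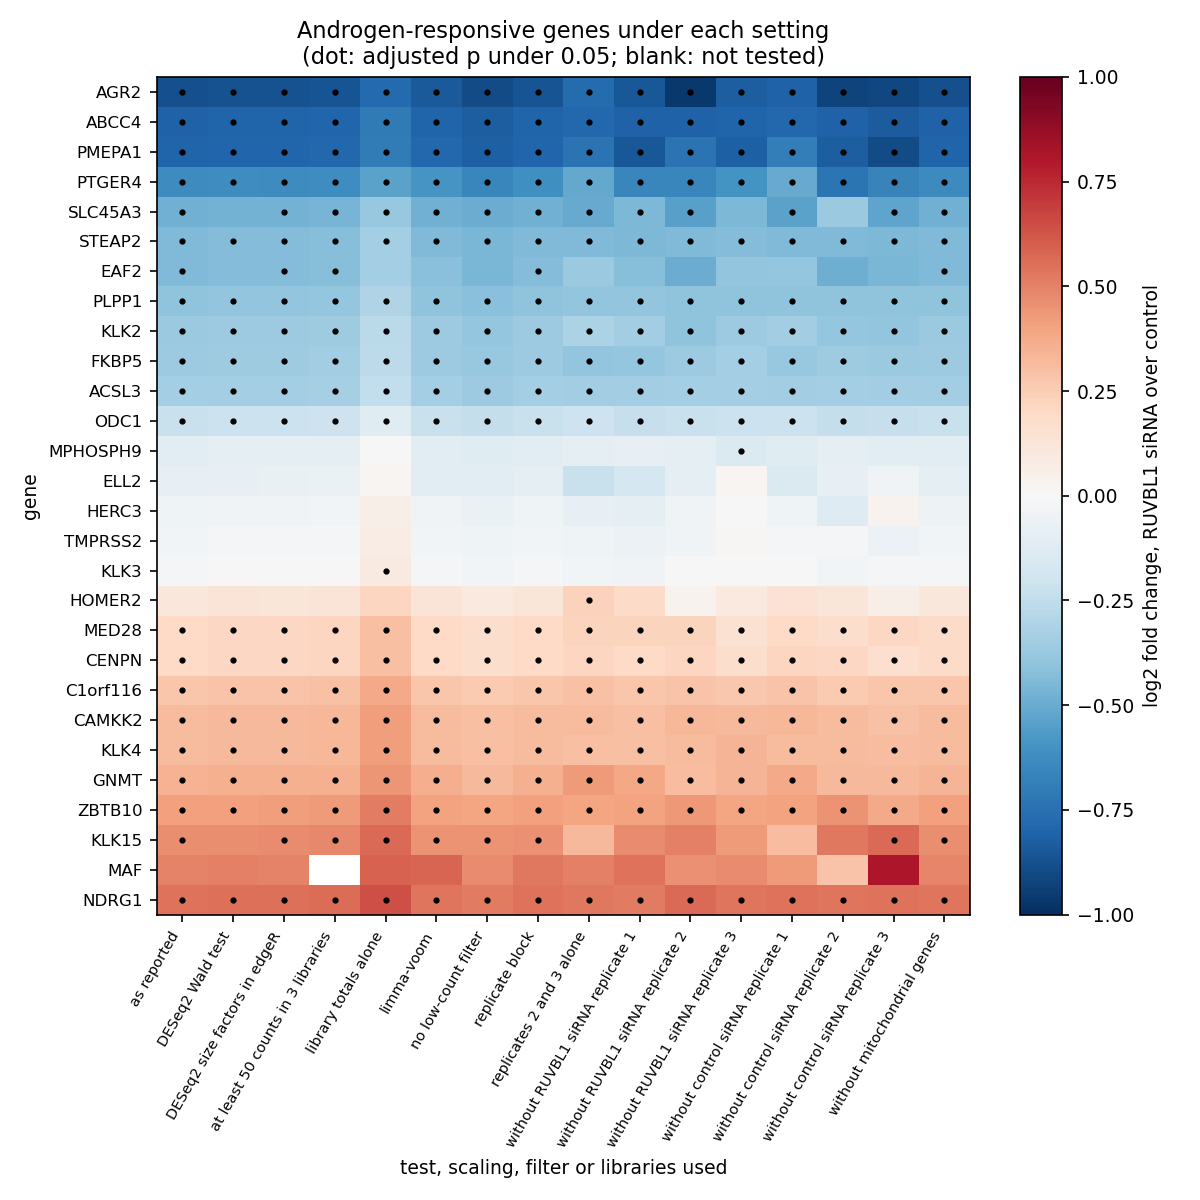
Log2 fold change of 28 androgen-responsive genes (rows) as reported and under 15 other settings (columns), with a dot where the adjusted p was under 0.05. Rows carry a dot in every column for 18 called genes, while dots are missing in places for KLK15, SLC45A3 and EAF2, whose direction stays the same, and KLK3 carries a dot only under library-total scaling.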

How the data were processed

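The 6 libraries, 3 per group, were made by RNA sequencing, and their groups and replicate numbers come from the labels. Each deposited file lists estimated counts for 57820 genes without scaling to depth. Per the submitters' processing notes, the tools include Bowtie 0.12.2 and the builds mouse mm8 and mm9. These builds do not match the human identifiers in the files, and the sources used here do not give the counter, human build, annotation or strand setting. Counts were rounded to whole numbers. Symbols came from a table of gene names matched by stable identifier, and promoters from RefSeq (GRCh38.p14).

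The test was edgeR 4.0.16 in R 4.3.3 (filterByExpr, TMM, robust quasi-likelihood, no covariates). It was two-sided, and p-values were adjusted by Benjamini-Hochberg over 16006 genes at a threshold of 0.05. The SE is the log2 fold change divided by the square root of F. Alternatives were DESeq2 1.42.0, limma-voom (limma 3.58.1), other scalings and filters, each library left out, replicates 2 and 3 alone, no mitochondrial genes, and a replicate block. Deviations of same-numbered libraries from their group means correlated across genes (0.939, 0.819 and 0.823). The reported test did not pair libraries by number, and the replicate block, which does, was only an alternative. Replicates 2 and 3 correlated as highly across numbers (0.817 and 0.807). These values rest largely on genes at 0 in both replicate 1 libraries. Without those genes the same-numbered correlations were 0.423, 0.192 and 0.22, and those of replicates 2 and 3 across numbers 0.176 and 0.137. All replicate pairs differed by more than counting noise, also without those genes (mean chi-square per gene at least 1.71). Pairs with replicate 1 had 3.88 and 3.93 with control siRNA and 3.29 and 3.32 with RUVBL1 siRNA. Replicates 2 and 3 had 1.71 and 1.73, so replicate 1 differed more from the others beyond the genes at 0. The code was tested on simulated data.

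The members and lists were chosen with earlier results of these data known. All 31 members are named, with RUVBL1 and, from each pathway list, its first gene and up to 4 genes with the smallest p past the threshold. Some genes under this rule are not reported here.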

Additional observations from a re-analysis of the deposited data

How the results depend on the processing

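Over the 15 alternative settings, between 8 and 10 members rose and between 10 and 12 fell, and 18 of the 21 calls held in all of them. Scaling by library totals shifted the median of all genes by 0.0992 on the log2 scale and gave 4981 genes higher and 2297 lower, against 3060 and 3695 as reported. Under it the members' median was 0.06, KLK3 was at 0.09, TMPRSS2 at 0.07, HERC3 at 0.06 and ELL2 at 0.02, all opposite in sign to the reported values. The other androgen-induced genes then had 9 lower, the androgen-repressed genes 1 lower and the glucocorticoid list 0 lower. A minimum of 50 counts in 3 libraries put KLK3 at 0.00. In replicates 2 and 3 alone, 1 androgen-repressed gene was lower and 3 genes of the glucocorticoid list were higher. That list had 0 lower with DESeq2 and 0 lower without the filter on low counts.

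Leaving out each library in turn moved the androgen-repressed genes lower between 1 and 2, the glucocorticoid list higher between 3 and 5, and that list lower between 0 and 1. The log2 fold change of KLK3 then ran from -0.04 to 0.00, of TMPRSS2 from -0.06 to 0.01, of HERC3 from -0.13 to 0.03 and of ELL2 from -0.17 to 0.02. The sign turned without RUVBL1 siRNA replicate 3 in KLK3, TMPRSS2 and ELL2, and without control replicate 3 in HERC3. The cause of these shifts was not tested.

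With the replicate block, which pairs libraries by number, 9 members rose and 12 fell, the same 21 calls. In all, 3743 genes then rose and 4094 fell. Depth limits TRPM8, STEAP4 and MAF, for which counts were too few to show a change of the sizes seen in the other members.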
